A study of Mus musculus with 2 samples.

Results

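The genes described here encode 33 subunits of ATP-dependent chromatin remodelers in the mouse, chosen by name from the main remodeler families and looked up by symbol in the GENCODE M1 annotation of the mm9 genome. They are 33 of 22366 protein-coding genes and of 37273 genes of any kind in that annotation. They comprise the 9 CHD genes, 9 genes for ATPases and core subunits of the BAF and PBAF complexes, 6 genes for subunits that set BAF and PBAF targeting, 6 genes of the ISWI ATPase Smarca5 and its partner family, and 3 genes for ATPases of the INO80 and SWR1 class. DRIP-seq was performed on neural stem/progenitor cells (NSPCs) cultured from the frontal brain of C57BL/6 mice at postnatal day 7, with the S9.6 antibody, which binds RNA:DNA hybrids in digested genomic DNA. According to the methods of the paper, though not the sample labels, the cells had been kept in 0.5 μM aphidicolin, a DNA polymerase inhibitor, for 48 h. The single deposited list holds 22132 R-loop peaks, given as chromosome, start and end; the input library, which had no antibody, is not used here. This is 1 condition without an untreated group, and the list gives no replicate error, height or depth, so a count of peaks carries no error and does not tell how many cells carried an R-loop.

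Chromatin remodelers use ATP to slide, evict or exchange nucleosomes and so set access to promoters and enhancers. BAF and CHD remodelers change subunits as neural progenitors become neurons, and mutations of several of these genes cause developmental disorders of the human brain. An R-loop forms when nascent RNA pairs with its template and leaves the other DNA strand single, most readily where that strand is rich in G. DRIP-seq as done here does not tell the strand, so a peak over overlapping genes cannot be given to one of them.

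The following stretches show the sequence at which the coding (non-template) strand of remodeler genes was richest in G over C inside R-loop peaks. Each is the 60 bases where the count of G exceeded that of C the most within the peaks of a gene with at least 5 peaks, or within one of the 3 widest peaks, read from the mm9 genome 5′ to 3′ on the coding strand and outside UTRs. Capitals mark runs of 3 or more G. Numbers of introns and exons refer to the longest protein-coding transcript.
Chd2, chr7:80639403-80639462, minus strand, intron 13: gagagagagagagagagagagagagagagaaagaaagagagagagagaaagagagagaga
Chd4, chr6:125049781-125049840, plus strand, intron 2: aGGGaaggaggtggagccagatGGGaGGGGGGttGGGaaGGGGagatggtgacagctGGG
Chd4, chr6:125073098-125073157, plus strand, intron 35: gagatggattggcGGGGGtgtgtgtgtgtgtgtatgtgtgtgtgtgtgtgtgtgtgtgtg
Chd6, chr2:160846972-160847031, minus strand, intron 10: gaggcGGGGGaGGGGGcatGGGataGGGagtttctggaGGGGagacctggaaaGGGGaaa
Chd7, chr4:8707384-8707443, plus strand, intron 2: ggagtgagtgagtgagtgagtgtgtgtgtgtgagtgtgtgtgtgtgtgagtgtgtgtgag
Smarca2, chr19:26680991-26681050, plus strand, intron 1: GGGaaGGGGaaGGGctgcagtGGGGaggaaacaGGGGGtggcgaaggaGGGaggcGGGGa
Smarcc2, chr10:127925415-127925474, plus strand, intron 27: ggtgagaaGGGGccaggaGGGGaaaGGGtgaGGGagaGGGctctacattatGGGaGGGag
Arid1a, chr4:133238028-133238087, minus strand, intron 19: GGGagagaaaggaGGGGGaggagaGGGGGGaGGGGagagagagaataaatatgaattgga
Arid1b, chr17:4995866-4995925, plus strand, exon 1: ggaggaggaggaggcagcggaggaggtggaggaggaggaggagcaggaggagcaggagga
Baz2a, chr10:127528925-127528984, plus strand, intron 1: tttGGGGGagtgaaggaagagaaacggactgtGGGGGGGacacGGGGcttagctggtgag
Bptf, chr11:106901126-106901185, minus strand, intron 28: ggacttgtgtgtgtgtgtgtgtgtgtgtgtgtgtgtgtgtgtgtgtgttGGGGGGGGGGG

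These stretches were of 3 kinds. Chd4 intron 2, Chd6, Smarca2, Smarcc2, Arid1a and Baz2a held from 3 to 7 separate runs of G. Chd2, Chd7, Bptf and Chd4 intron 35 held purine or TG repeats with at most 1 such run. The Arid1b stretch was a GGA-type repeat in the coding part of exon 1, with 37 G and 4 C among its 60 bases, and it lay inside the peak over the TSS.

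Of the 33 remodeler genes, 29 (87.9%) overlapped at least 1 R-loop peak, against 39.6% of all protein-coding genes. Remodeler genes were long, with a median of 70.3 kb against 15.4 kb, and a long gene is a larger target. Each was therefore set beside the other protein-coding genes in the same class when genes were divided into 10 by length and 10 by the GC content of the promoter, here the 2 kb on each side of the TSS. Such classes held from 96 to 286 genes. The class of the longest genes had no upper limit, so that Arid2 at 118 kb and Arid1b at 353 kb fell in the same class. From these matched genes 21.1 members would hold a peak, that is 63.8%. The members together held 105 distinct peaks against 61.0 from the matched genes, and 19 of the 33 exceeded the mean of their own class. No test was possible with 1 list, and genes are not replicates of a condition. The classes did not match transcription. The paper reports higher transcription of active genes with R-loop peaks than of active genes without them.

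The peaks were spread unevenly among the genes. At least 5 peaks lay in 8 genes, against 2.73% of all protein-coding genes and 3.23 members from the matched genes. From 2 to 4 peaks lay in 13 genes, 1 peak in 8 and none in 4. Peaks covered 252 kb of the 3022 kb of remodeler genes, or 8.35%, against 3.81% of the length of all protein-coding genes. The density was 3.47 peaks per 100 kb of gene for the members and 1.79 for all protein-coding genes. The surroundings of the members were also richer in peaks: within 500 kb of the gene, the mean was 24.3 peaks per Mb for members and 16.9 for genes matched on length and promoter GC. Matched instead on length and on this surrounding density, 21.9 members would hold a peak and 61.3 peaks would lie in them, close to the values from length and promoter GC.

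**Figure D1:**
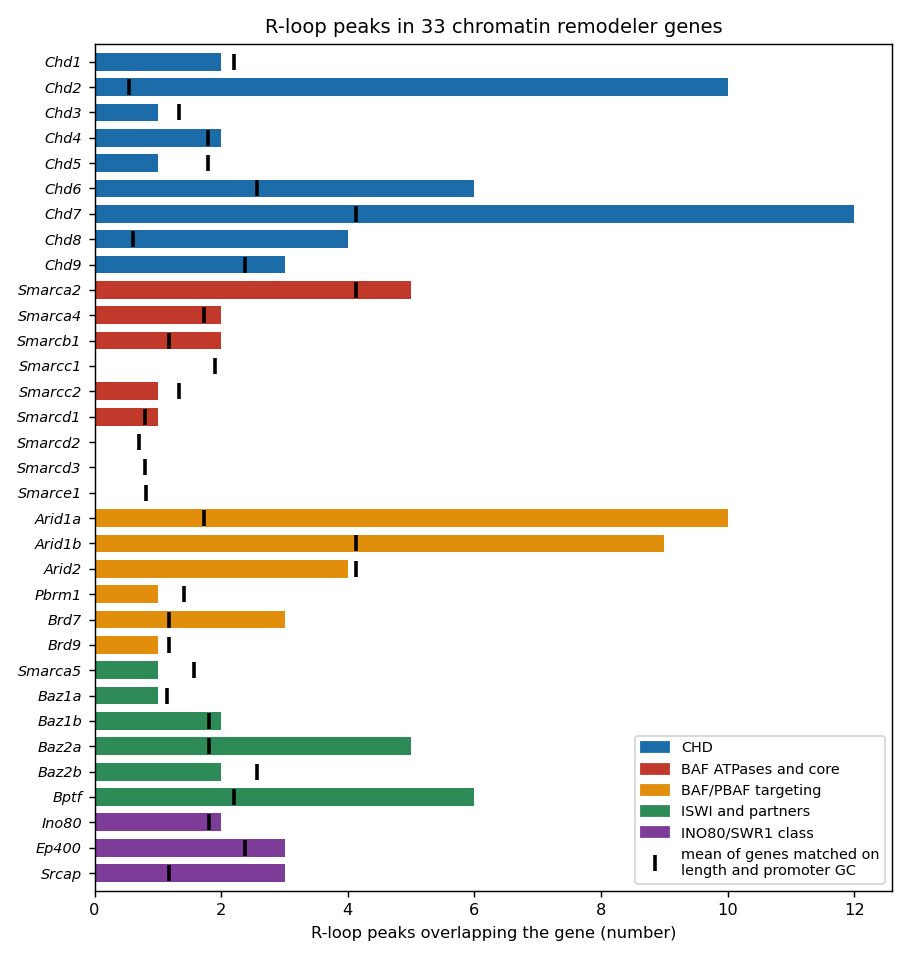
R-loop peaks overlapping each of the 33 remodeler genes (bars, number of peaks, coloured by role), with the mean of other protein-coding genes in the same class of length and promoter GC content (black ticks). Chd7 had 12 peaks, Chd2 and Arid1a 10 each and Arid1b 9, whereas Smarcc1, Smarcd2, Smarcd3 and Smarce1 had none.

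The CHD genes, whose products join a Snf2-type ATPase to a pair of chromodomains, all held a peak. Together these 9 genes held 41 peaks, against 17.4 from matched genes, and with 9 genes holding a peak against 5.69. Part of this difference lay in Chd2, with 10 peaks, and Chd8, with 4, whose classes had means of 0.542 and 0.614 peaks. The GC content within 2 kb of their TSS was 36.1% and 43.2%. Chd7, the remodeler mutated in CHARGE syndrome (chr4:8617553-8794806), held 12 peaks that covered 13.5% of its 177 kb. Of these peaks, 6 had their midpoint in intron 1, and the first began 48 bp inside the gene. In all, 4 of its 5 protein-coding transcript starts lay in a peak. Chd7 was compared with a class in which the mean was 4.14 peaks.

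Chd2, an ATPase linked to developmental epilepsy (chr7:80571577-80686632), held 10 peaks over 19.7% of its 115 kb. The annotated limit of Chd2 lay 2481 bp from its nearest peak, but 2 of its 4 protein-coding transcript starts lay in a peak. The GC content within 2 kb of that limit was 36.1%, the lowest among the members, so Chd2 was compared with a class of low promoter GC whose mean was 0.542 peaks. Chd6 (chr2:160772714-160934811), a large CHD protein with BRK domains, held 6 peaks, all away from the TSS. A protein-coding transcript start inside the gene lay 235 bp from the nearest of them. Only 2 of these 6 were at least 1 kb wide.

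Chd8, mutated in autism (chr14:52817826-52857466), held 4 peaks over 18.3% of its 39.6 kb, and 3 of them also overlapped the noncoding record Gm16682. Chd9, the fourth of these large paralogs (chr8:93352734-93578407), held 3 peaks that covered 0.818% of its 226 kb, the lowest coverage of a CHD gene. None of these reached 1 kb, and 2 of them, 0.316 and 0.784 kb wide, were separated by a single base and lay over the record Gm6658. Among the 4 paralogs the counts were thus 6 in Chd6, 12 in Chd7, 4 in Chd8 and 3 in Chd9.

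The NuRD ATPase genes differed in another way, by the width of their peaks. Chd4 (chr6:125045999-125080609), the main NuRD ATPase of progenitors, held only 2 peaks, but they covered 48.3% of its 34.6 kb, the highest share among the members. One was 7.71 kb wide and lay over the TSS, and the other was 11.281 kb wide, the widest in any remodeler gene, and ran over the TES into Nop2, a neighbouring gene for an rRNA methyltransferase. Its paralogs Chd3 and Chd5 held 1 peak each, of 4.837 and 1.678 kb, both inside the gene. The Chd3 peak also overlapped the small RNA record SCARNA21. Chd1, which binds the histone mark of active promoters, held 2 peaks, one of them over the TSS.

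The ATPases and core subunits of BAF held fewer peaks. Of these 9 genes 5 held a peak, where matched genes gave 5.35, and they held 11 peaks, where matched genes gave 13.4. The difference between the roles was not tested. Smarca2 (BRM; chr19:26679650-26852811), one of the alternative BAF ATPases, held 5 peaks, 1 of them over the TSS, in a class whose mean was 4.14. Its paralog Smarca4 (BRG1; chr9:21420613-21508674) held 2 peaks, both inside the gene, with 22724 bp between its start and the nearest peak. Smarcb1, a core subunit lost in rhabdoid tumours, held 2 peaks, one of 0.994 kb over the TSS and one of 3.905 kb in intron 7.

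The 4 remodeler genes without a peak were all core subunits of BAF. Smarcc1 (BAF155), a scaffold subunit, was the longest of them at 108 kb, and 62.0% of its matched genes held a peak. The nearest peak to Smarcc1 began 1032 bp downstream of the gene. Its paralog Smarcc2 (BAF170; chr10:127896292-127927229) held 1 peak of 8.611 kb, which lay over the TES and also over Myl6 and Myl6b, neighbouring genes for myosin light chains. Most of that peak lay outside Smarcc2.

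Smarcd2 and Smarcd3, alternative BAF60 subunits, were short at 9.79 and 11.2 kb, and about equal numbers of their matched genes held a peak or did not (49.6% and 52.3% held one). Their nearest peaks lay 1816 and 15308 bp downstream, in Psmc5 and Abcf2. The third of these paralogs, Smarcd1 (chr15:99532718-99544426), of like length at 11.7 kb, held 1 peak of 5.714 kb that covered 44.6% of the gene and reached past the TES. Smarce1 (BAF57), which has an HMG domain, lay 56279 bp from the nearest peak, the farthest of the 4. Absence from the list is not absence of an R-loop, since the depth behind the list is unknown. With 2 kb added on each side, Smarcc1 and Smarcd2 also counted as holding a peak.

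The subunits that direct BAF and PBAF to their targets all held a peak, 6 genes against 4.07 from matched genes. They held 28 peaks, against 13.8 from matched genes. Arid1a (BAF250A; chr4:133234923-133312684), the defining subunit of canonical BAF, held 10 peaks over 39.9% of its 77.8 kb, the highest density among the members at 12.9 peaks per 100 kb. These peaks lay from the TSS to within 1 kb of the TES. After peaks closer than 1 kb were merged, 7 remained. The highest density then passed to Srcap, which kept its 3 peaks at 12.3 per 100 kb of its longer record. The mean of the class of Arid1a was 1.72 peaks.

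Its paralog Arid1b (BAF250B; chr17:4994332-5347656), mutated in Coffin-Siris syndrome, held 9 peaks over 5.77% of its 353 kb. Of these, 4 were at least 1 kb wide. The widest, of 6.803 kb, lay in intron 2. Arid1b was thus similar to Arid1a in number of peaks, while its covered share was several times lower in a gene several times longer.

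The PBAF genes were more modest. Arid2 (chr15:96117953-96235894), which defines PBAF, held 4 peaks, of which the one over the TSS was 5.591 kb wide. Brd7, a bromodomain subunit of PBAF, held 3 peaks over 24.3% of its 31.2 kb, and the first began 114 bp inside the gene. Pbrm1, the polybromo subunit of PBAF, and Brd9, the bromodomain subunit of noncanonical BAF, held 1 peak each, of 2.073 and 3.674 kb.

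The 6 genes of ISWI and its partner family all held a peak, against 4.01 from matched genes, with 17 peaks against 11.1. Bptf (chr11:106894395-106993441), the reader subunit of NURF, held 6 peaks over 17.3% of its 99.0 kb, all of at least 1 kb, and 1 of them lay over the TSS. Baz2a (TIP5; chr10:127496046-127566359), the NoRC subunit of ribosomal gene silencing, held 5 peaks over 21.8% of its 70.3 kb. In the annotation 4 of these 5 overlapped another protein-coding gene, namely Ptges3, Atp5b for 2 of them, and Rbms2. Its paralog Baz2b (chr2:59737420-60047896) held 2 peaks in 310 kb, which covered 0.776%, the lowest share among genes with a peak.

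Smarca5 (SNF2H), an ISWI ATPase, held 1 peak of 3.215 kb over the TSS. Baz1a (ACF1) held 1 peak, 28602 bp from the gene limit but 190 bp from the nearest protein-coding transcript start, and Baz1b, the WSTF gene deleted in Williams syndrome, held 2. The start of Baz1b lay 30990 bp from the nearest peak in the gene. No peak reached the TES of any of these 3 genes.

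All 3 ATPase genes of the INO80 and SWR1 class held a peak, against 1.95 from matched genes. Each had a peak over the TSS, where 14.9% of all protein-coding genes had one. Ino80 (chr2:119198778-119303423) held 2 peaks, Ep400 (chr5:111093392-111199736) 3 and Srcap (chr7:134655541-134679890) 3, and these 8 peaks compare with 5.36 from matched genes. Ep400, the ATPase of the TIP60 complex, also had a peak over the TES, as Chd4 did, and no other member had both. Srcap, whose product exchanges histone H2A.Z, has a second record on the same strand with 1 peak over its start. That record, under the same symbol, was left out of the counts. With the limits of both records joined, the members held 107 peaks instead of 105, the difference lying in Srcap. The peaks, length and ends given for Srcap, the total of its class and the number of genes with at least 5 peaks thus rest on the longer record.

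**Figure D2:**
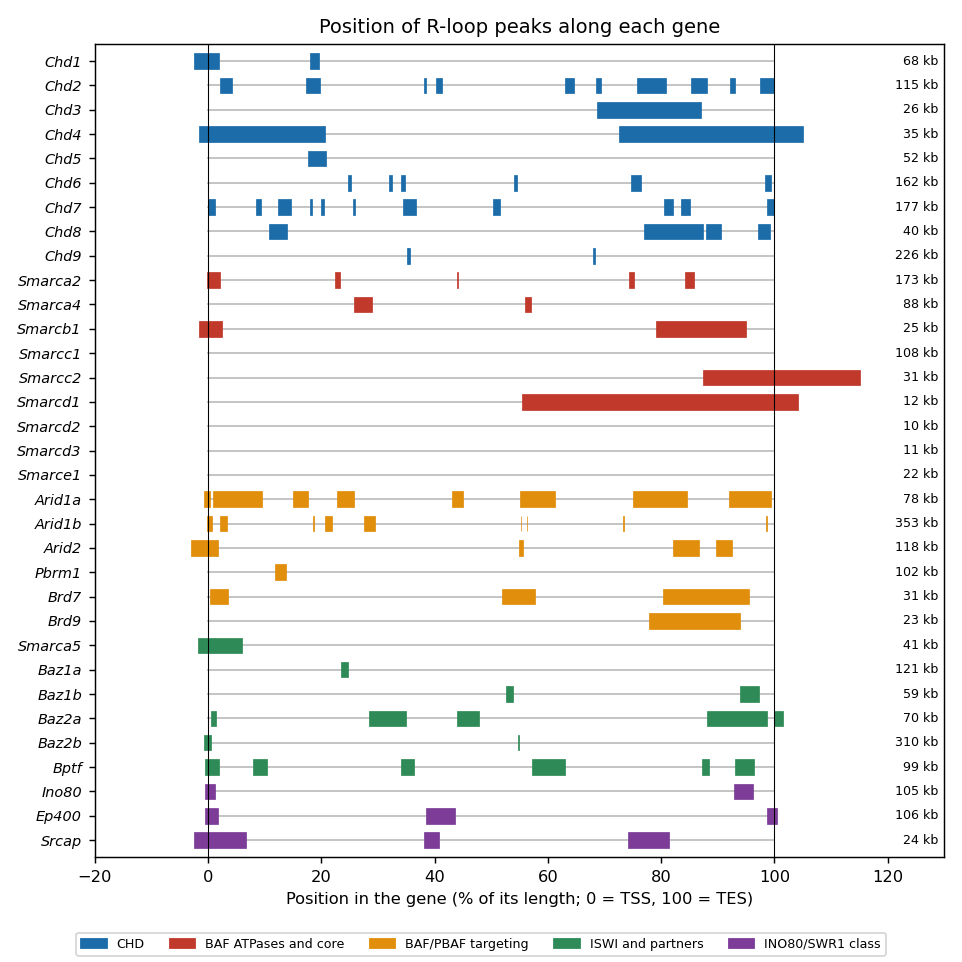
Position of the 105 R-loop peaks along each remodeler gene, as percent of gene length from TSS (0) to TES (100), drawn 5′ to 3′ with the gene length at the right; each box is a peak to scale, coloured by role. Peaks lay over the TSS of 13 genes and the TES of 5, and most lay between.

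The TSS lay in a peak in 13 of 33 genes (39.4%), against 14.9% of all protein-coding genes and 7.84 genes from the matched classes. These were Chd1, Chd4, Smarca2, Smarcb1, Arid1a, Arid1b, Arid2, Smarca5, Baz2b, Bptf, Ino80, Ep400 and Srcap. For Baz2b the limit belongs to a noncoding transcript; none of its protein-coding transcripts began in a peak, and the peak is shared with March7. When the start of any protein-coding transcript counted, 15 genes had a start in a peak. The share over all protein-coding genes under this wider definition is not given here, and the 14.9% holds for the gene limit only.

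The TES lay in a peak in 5 genes (15.2%), namely Chd4, Smarcc2, Smarcd1, Baz2a and Ep400, against 10.9% of all protein-coding genes and 3.84 genes from the matched classes. This count moved most with the definition, from 5 to 9 genes for the end of any protein-coding transcript and to 12 for any base within 1 kb of the end. Shares over all protein-coding genes under these wider definitions are not given here, and the 10.9% holds for the gene limit only. Over neither end lay 87 of the 105 peaks. In 13 genes every peak lay strictly inside the gene, which was 44.8% of the members with a peak and 45.7% of all protein-coding genes with one.

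The midpoints of 81 peaks lay in introns, 22 of them in intron 1, and those of 17 lay in exons. Exon bases were held by 64 peaks, and 41 had none. Of the 99 midpoints inside a gene, 19 lay in the first of 10 equal parts of its length, 19.2% against 17.0% for all protein-coding genes, and 13 lay in the last, 13.1% against 14.3%. Another 13 lay in the part next to the last, where the share over all genes was 10.8%. Of the 105 peaks, 9 were shared with another protein-coding gene, in Chd4, Chd9, Smarcc2, Baz2a and Baz2b. For these shared peaks, and for the counts in introns and exons, no share over all genes is given here.

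Peaks in remodeler genes had a median width of 2.053 kb, with the quartiles at 0.994 and 3.674 kb, against 1.677 kb for the 16450 peaks in all protein-coding genes. At least 1 kb was reached by 77 of them (73.3%), against 66.9%. Their median GC content was 47.8%, against 49.5% for all peaks in protein-coding genes. Peaks over the TSS were richer in GC, with a median of 58.4% and a range from 51.1% in Baz2b to 69.7% in Arid1b. The 5 peaks over a TES were wider, with a median of 5.714 kb, and had a median of 48.1% GC. Among the 87 others the median was 46.9%, but 6 exceeded 60%, among them the first peak of Chd7 at 71.3%, just inside its start, the peak pair of Chd9 at 78.5% and 75.6%, and one Arid1a intron 1 peak at 73.7%.

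**Figure D3:**
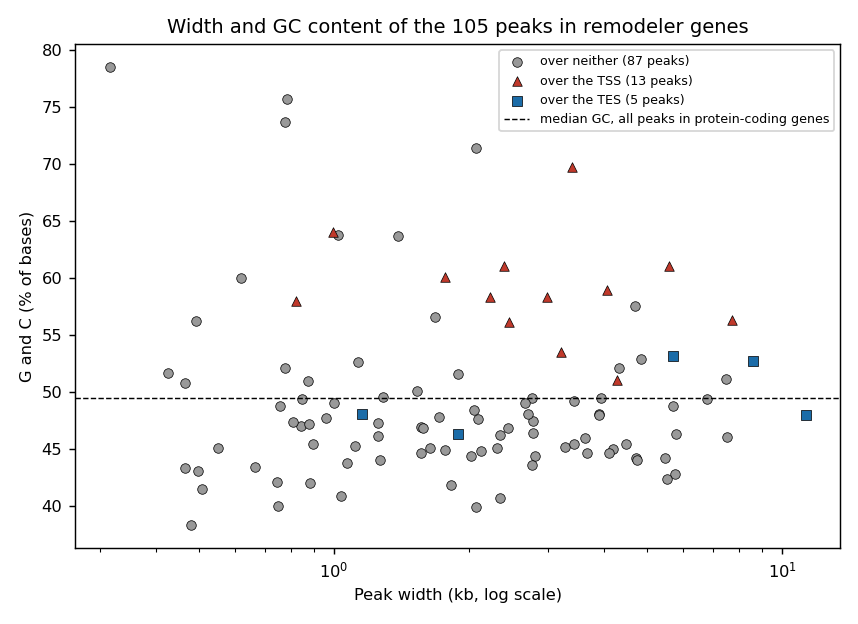
Width (kb, log scale) and GC content (percent of bases) of each of the 105 peaks in remodeler genes, marked by whether it lay over the TSS, the TES or neither; the dashed line is the median GC content of all peaks in protein-coding genes. All 13 peaks over a TSS lay above that line at 49.5%, whereas most peaks over neither end lay below it.

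GC skew, which is (G − C)/(G + C) for the coding strand, was positive in 76 of the 105 peaks (72.4%), against 65.1% of all peaks in protein-coding genes. Its median was 0.0438 in remodeler genes and 0.0346 in all. In the first 1 kb of the gene the skew was positive in 25 of 33 members (75.8%), against 64.9% of protein-coding genes, with a mean of 0.0563 against 0.0485 in matched genes. A GGGG run was looked for in 60-base tiles on either strand, counted separately. It was found on the coding strand of 18.7% of the tiles in members' peaks and of 11.8% outside them, and for all protein-coding genes the shares were 20.9% and 12.8%. For the members the share inside was thus 1.58 times that outside on the coding strand, and 1.49 times on the opposite strand. The ratios over all protein-coding genes were slightly higher, at 1.62 and 1.51. Such a match is a description of the sequence and not of what formed there.

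Longer remodeler genes held more peaks. Over the 33 genes the correlation of length with number of peaks was r = 0.479 and rho = 0.576, given as a description since all genes come from 1 list. That of promoter GC content with number of peaks was r = 0.00756, and that of peak density within 500 kb was r = -0.292. Against the number of peaks per 100 kb of gene, the density within 500 kb gave r = 0.185 and rho = 0.153. Among the members, by length alone, Smarcc1 at 108 kb with no peak, Baz1a at 121 kb with 1 and Baz2b at 310 kb with 2 lay low. Chd8 at 39.6 kb with 4 and Arid1a at 77.8 kb with 10 lay high. In classes that also match promoter GC, the means were 1.91 for Smarcc1, 1.15 for Baz1a and 2.56 for Baz2b. They were 0.614 for Chd8 and 1.72 for Arid1a. Baz1a was thus close to the mean of its class.

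**Figure D4:**
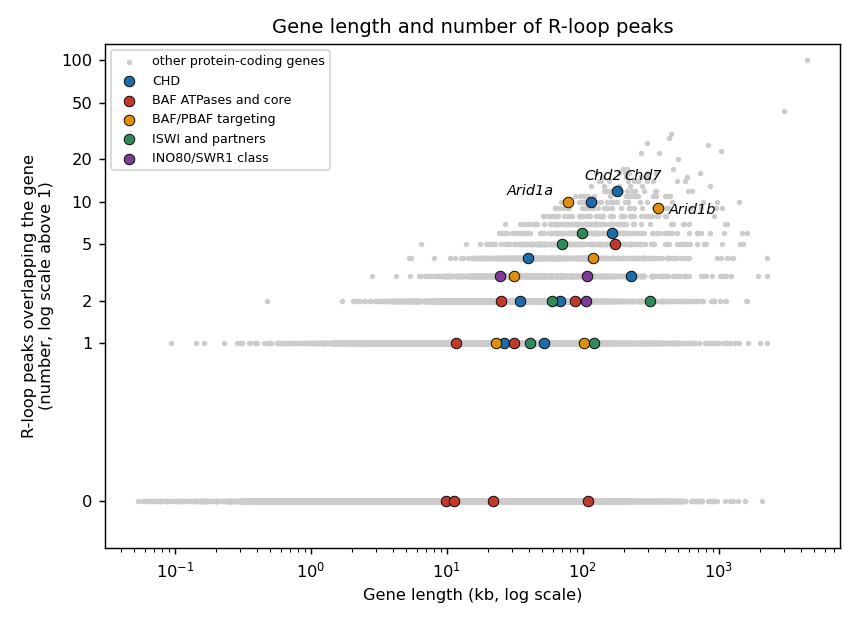
Gene length (kb, log scale) and number of R-loop peaks (log scale above 1) of the 33 remodeler genes, coloured by role, over all other protein-coding genes (grey). Arid1a, Chd2, Chd7 and Arid1b held from 9 to 12 peaks, and the 4 genes at 0 were core subunits of BAF.

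Further subunits of these complexes, and 10 other Snf2-like ATPases that are not part of them, were taken from a list of 66 names, of which 65 are symbols in the annotation. Of these, 46 (70.8%) held at least 1 peak, against 34.8 from matched genes and the 39.6% of all protein-coding genes, and they held 85 peaks against 75.6. Their median length was 28.1 kb. A peak lay in 23 of 27 genes of INO80, SRCAP and TIP60, 9 of 11 of NuRD, 8 of 12 of BAF, 2 of 5 of ISWI and 4 of 10 other Snf2-like ATPases. The most peaks lay in Epc1, a TIP60 scaffold, with 8, in Trrap, the large adaptor of acetyltransferases, with 6, and in Gltscr1, a subunit of noncanonical BAF, with 5.

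Marker genes of cell types were also looked up. Of the neural stem and progenitor markers, Sox2, Nes, Vim, Notch1 and Hes1 held a peak, and Fabp7, Pax6 and Hes5 did not. Among 8 markers of microglia, endothelium and neurons, Csf1r and Pecam1 held a peak. The share over all protein-coding genes was 39.6%, and the markers were not matched on length. A peak list does not measure RNA, and the markers are few. They describe only which marker genes held a peak and do not check the cell type.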

How the data were processed

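The authors removed adapters (Trim Galore 0.6.6, per the submitters' processing notes), mapped reads to mm9, discarded duplicates, and used a Hidden Markov Model to find peaks. The deposited list holds only positions, in base pairs, and neither heights nor reads. The paper reports the same number of peaks, 22132, from libraries of 3 biological replicates. How these replicates were combined into 1 list is not given in the sources used here. Per the labels, each library combined 3 DRIP reactions of 1 biological replicate. DNA was cut with 5 restriction enzymes before DRIP. Depth per sample is unknown, so no error or interval could be given.

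Starts were converted to 1-based positions and compared with GENCODE M1 gene limits, the union of all transcripts, from 1 bp of overlap. TSS and TES are these limits. The 33 symbols have 34 records, since Srcap has 2, of which the longer was kept. Matched values are sums, over members, of the mean of other protein-coding genes in the same of 10 by 10 classes of length and promoter GC content (2 kb either side of the TSS), without drawing genes. The matched share of genes with a peak was checked on simulated data built on length and promoter GC content. Matched numbers of peaks were not checked in this way. As alternatives, narrow peaks (under 1 kb) were dropped or peaks under 1 kb apart merged, and other overlaps, limits and classes were tried; those on Srcap, on any transcript and on peaks within 500 kb were added after seeing the data.

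The members, the list of further subunits and ATPases and the markers were chosen with earlier results of these data known. Genes named in full have at least 5 peaks, the TSS in a peak, no peak, or one of the 3 widest peaks, and the counts of paralogs are given. Genes sharing a peak with these and the 3 further subunits with most peaks are named too. Other members and examples were named after their values were seen. Results for 1 marker gene are not reported here. Calculations used Python 3.11.15, numpy 2.4.6, pandas 2.3.3 and pysam 0.24.0, and figures matplotlib 3.10.9.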

Additional observations from a re-analysis of the deposited data

How the results depend on the processing

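The number of remodeler genes with a peak ranged from 28 to 31 over 7 alternatives, and the number from matched genes from 16.6, with peaks of at least 1 kb, to 22.4, with GC content within 500 bp of the TSS, over 13. With peaks of at least 1 kb, 28 members and 31.8% of protein-coding genes held a peak. The number of peaks in members ranged from 77 to 115, that of genes with the TSS in a peak from 11 to 17, the covered share from 7.72% to 8.52%, and that of further subunits and ATPases with a peak from 37 to 46. The number of genes with the TES in a peak moved from 5 to 12 for any base within 1 kb of the end and to 9 for the end of any protein-coding transcript, because both definitions accept more positions. No share over all protein-coding genes is given for the wider definitions of TSS and TES. With peaks of at least 1 kb, Chd6 kept 2 of 6 peaks, Arid1b 4 of 9 and Chd9 none of 3. With peaks counted by their midpoint, Smarcc2 held none. No paired analysis was possible because 1 peak list was analysed. Its unknown depth limits what absence of a peak means.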

Other observations

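In 4 of the 105 peaks in remodeler genes (3.81%) the GC skew lay beyond 0.5 in either direction, against 965 of 16450 peaks in protein-coding genes (5.87%). All 4 were narrower than 1 kb, as were 869 of the 965. They lay in introns of Chd7 (480 bp, skew -0.511), Smarca2 (508 bp, -0.668), Arid1b (466 bp, 0.673) and Baz2b (497 bp, 0.664), and were singled out after their values were seen. The most skewed 60 bases of the Smarca2 and Arid1b peaks, on the coding strand in mm9, show a simple C-rich and a simple G-rich repeat, with no capitals since neither holds a run of 3 or more of that base.
Smarca2, chr19:26755834-26755893, plus strand, intron 17: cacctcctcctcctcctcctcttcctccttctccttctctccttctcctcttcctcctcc
Arid1b, chr17:5193152-5193211, plus strand, intron 4: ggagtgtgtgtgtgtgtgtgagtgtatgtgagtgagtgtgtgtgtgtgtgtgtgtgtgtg

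Of the 210 edges of the members' peaks, 63 (30.0%) lay within 100 bp of a site of the restriction enzymes, against 29.1% of the edges of all peaks in protein-coding genes.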
